A study of Mus musculus with 18 samples.

Results

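The comparison described here set 3 arrays of mouse hepatocytes that over-expressed PGC-1a1 and received TNFalpha against 3 arrays of the same kind of cells that received PBS. They are 6 of the 18 arrays of the series, chosen by their labels alone. The cells were primary hepatocytes from the liver of C57BL/6J mice, and the array titles of every group, vector included, begin with WtPH. The cells compared were infected for 48 h with an adenovirus that carried PGC-1a1, labelled as the wild-type protein over-expressed. They were then given 2 ng/mL TNFalpha or the PBS vehicle for 2 h, in DMEM with 25 mM glucose. Vector and PGC-1a4 adenovirus cells, with 3 PBS and 3 TNFalpha arrays each, are used below only where the TNF response of PGC-1a1 cells is set against theirs. Every virus, the vector included, also expressed GFP from its own reading frame, so no group was free of infection. Whether arrays of 1 group stand for different animals or culture dishes is not in the labels, and the p-values may therefore reflect technical spread alone.

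PGC-1a1, the full-length PGC-1alpha, is a coactivator that raises transcription of genes for mitochondria, fatty acid oxidation and gluconeogenesis through nuclear receptors such as PPARalpha, HNF4A and the estrogen-related receptors. TNFalpha, an inflammatory cytokine, binds TNF receptors on hepatocytes and activates the kinases that free NF-kB from its inhibitors and those that act on AP-1. NF-kB then induces chemokines, adhesion molecules, survival genes and its own inhibitors, and inflammation is known to lower much of the metabolic program of the liver.

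Values are log2 RMA levels of 1 probe set per gene, the brightest over all arrays, for 15491 genes. Differences are TNF minus PBS on the log2 scale with the standard error of a limma fit over all 18 arrays, and a gene was called at a Benjamini-Hochberg adjusted p under 0.05. The 3 PBS arrays had medians of 7.27 to 7.30 and the 3 TNF arrays of 7.04 to 7.08, and the standard deviation of levels was 2.09 to 2.14 and 2.28 to 2.32. Arrays correlated at 0.992 to 0.996 within a treatment and at 0.935 to 0.945 between treatments. The TNF arrays and the PBS arrays therefore differed as sets in centre and width, and in this design the array set cannot be told apart from the treatment. For that reason each call was also made after 3 other scalings (quantile normalization, centring on each array's median, and cyclic loess), and counts that held in all 4 scalings, the deposited one included, are given beside the main counts.

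The measured Ppargc1a probe set did not show the transgene. Its PBS levels in PGC-1a1 cells were 6.85, 6.97 and 6.97 and its TNF levels 6.61, 6.38 and 6.58, and the mean in vector PBS cells was 7.21. The difference of -0.41 ± 0.16 (adjusted p = 0.0276) was not called in the other 3 scalings (-0.15, -0.18 and -0.08), nor without PBS array 2 (-0.39), PBS array 3 (-0.39) or TNF array 2 (-0.34). It checks no label, because PBS levels were no higher in PGC-1a1 than in vector cells. Tnf itself, the gene of the cytokine that was added, was at 7.85, 8.0 and 8.0 with PBS and at 7.48, 7.41 and 7.94 with TNF, and the arrays overlapped (difference -0.34 ± 0.23, adjusted p = 0.185).

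The promoters of 6 of the genes that rose are shown first. They were chosen for holding a motif of NF-kB or of the estrogen-related receptors, so its presence in them is no result. Whether either motif bears on the rises was not tested. Each promoter is 300 bases around a RefSeq start site (GRCm38.p6), most of them before it, read 5′ to 3′ on the gene's strand. Capitals mark the NF-kB motif (GGG, any 3 bases, then TTCC) or its reverse complement in the first 4. Nfkbid and Tnfaip3 encode inhibitors of NF-kB signalling, and Cxcl10 and Cxcl3 encode chemokines. Within each list they were the 2 motif-holding genes with the smallest p.
Nfkbid, chr7:30422156-30422455, plus strand: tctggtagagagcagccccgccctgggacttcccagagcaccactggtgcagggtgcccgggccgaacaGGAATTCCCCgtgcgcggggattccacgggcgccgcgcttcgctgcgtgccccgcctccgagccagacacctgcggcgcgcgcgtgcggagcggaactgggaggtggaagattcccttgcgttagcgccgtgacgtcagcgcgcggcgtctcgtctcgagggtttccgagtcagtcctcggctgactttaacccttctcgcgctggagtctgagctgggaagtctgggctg
Tnfaip3, chr10:19015361-19015660, minus strand: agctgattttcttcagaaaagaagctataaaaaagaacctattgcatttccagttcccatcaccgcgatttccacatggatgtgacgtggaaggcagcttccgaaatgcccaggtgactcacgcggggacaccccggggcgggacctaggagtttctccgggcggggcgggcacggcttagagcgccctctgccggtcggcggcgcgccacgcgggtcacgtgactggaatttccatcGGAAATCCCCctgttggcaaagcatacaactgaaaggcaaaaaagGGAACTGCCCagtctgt
Cxcl10, chr5:92348840-92349139, minus strand: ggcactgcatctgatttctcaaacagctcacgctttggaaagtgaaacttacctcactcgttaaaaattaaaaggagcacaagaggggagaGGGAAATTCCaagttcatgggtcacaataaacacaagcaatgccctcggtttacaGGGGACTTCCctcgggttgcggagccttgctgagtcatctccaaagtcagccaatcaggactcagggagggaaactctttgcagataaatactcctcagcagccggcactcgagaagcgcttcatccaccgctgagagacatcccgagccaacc
Cxcl3, chr5:90785851-90786150, plus strand: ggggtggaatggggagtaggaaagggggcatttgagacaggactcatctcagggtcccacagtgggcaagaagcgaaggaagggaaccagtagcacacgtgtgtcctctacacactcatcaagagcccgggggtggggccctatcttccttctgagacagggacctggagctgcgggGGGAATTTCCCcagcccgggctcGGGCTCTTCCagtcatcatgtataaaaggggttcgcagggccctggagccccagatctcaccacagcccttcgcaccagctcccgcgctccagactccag

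The single Nfkbid match and both Tnfaip3 matches read on the opposite strand to the gene, and both Cxcl10 matches read on its strand. Cxcl3 held 3 matches, of which a pair on opposite strands overlapped. The motif occurred in 5.6% of 32851 promoters and in 6.8% of the 12327 measured genes with a promoter. Among NF-kB subunits and inhibitors it occurred in 7 of 14 genes with a promoter (50.0%), and among chemokines in 5 of 15 (33.3%). All 5 of those chemokines (Ccl9, Ccl20, Cxcl1, Cxcl3 and Cxcl10) rose with TNF, and 3 further chemokines with a promoter rose without a match. In the list of NF-kB subunits and inhibitors, 5 of the 7 genes with a match were called higher, beside 9 of all 14 with a promoter. Nfkbia, whose probe sets disagree, has a match and counts there as not higher. In the adhesion and matrix list it was in 0 of 9 promoters, which says only that these letters are not in those windows.

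The other promoters belong to subunits of ATP synthase, with capitals on the estrogen-related receptor motif AAGGTCA or its reverse complement.
Atp5e, chr2:174464052-174464351, minus strand: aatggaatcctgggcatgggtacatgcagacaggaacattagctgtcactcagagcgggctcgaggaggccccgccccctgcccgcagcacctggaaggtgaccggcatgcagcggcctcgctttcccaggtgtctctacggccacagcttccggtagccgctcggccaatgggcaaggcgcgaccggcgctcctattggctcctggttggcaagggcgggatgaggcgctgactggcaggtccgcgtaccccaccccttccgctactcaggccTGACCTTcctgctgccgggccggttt
Atp5l, chr9:44920693-44920992, minus strand: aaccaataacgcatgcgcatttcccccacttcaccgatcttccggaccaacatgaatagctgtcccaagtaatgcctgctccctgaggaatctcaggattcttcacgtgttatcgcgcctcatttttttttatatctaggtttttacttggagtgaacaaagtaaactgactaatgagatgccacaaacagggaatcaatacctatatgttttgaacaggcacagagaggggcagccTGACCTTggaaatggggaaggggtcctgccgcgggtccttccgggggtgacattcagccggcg

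Both matches were on the opposite strand to the gene, after the start site in Atp5e and before it in Atp5l. This motif occurred in 4.7% of all promoters and 4.5% of measured genes. It was in 4 of 28 promoters of respiratory complexes II to V (Sdhd, Atp5e, Atp5k and Atp5l), in 3 of 30 of complex I and in 3 of 55 of mitochondrial ribosomal proteins. In each of the last 2 lists, 2 of the 3 genes with a match rose, beside 28 of all 30 and 51 of all 55 with a promoter. Atp5e and Atp5l rose in all 4 scalings, while Sdhd and Atp5k had differences of 0.32 and 0.18 that were -0.08 and -0.22 after cyclic loess. A match is a description of letters and not of a bound site.

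Of 15491 genes, 10782 (69.6%) were called between TNF and PBS in PGC-1a1 cells, 5353 (34.6%) higher and 5429 (35.0%) lower. A change of more than 2-fold was reached by 1827 called genes upward and 1052 downward. The TNF and PBS arrays did not overlap in 11335 genes (73.2%). In all 4 scalings, 7293 genes (47.1%) were called the same way, 4118 (26.6%) higher and 3175 (20.5%) lower. The direction of the split moved with the scaling: centring each array on its median gave 6906 higher and 3443 lower, and quantile normalization gave 4738 and 5118. The median difference over all genes was -0.04, and 0.19 after centring. Of 7294 probe sets that name no single gene, 4065 (55.7%) were called.

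The direction also followed the level of a gene. Of 5196 genes at mean levels of 6 to 8 over the 6 PGC-1a1 arrays, 796 were higher and 2676 lower with TNF, with a median difference of -0.35. Of 2570 genes at levels of 10 to 12, 1743 were higher and 409 lower, with a median of 0.54. After quantile normalization these medians were -0.13 and 0.07. Lists of abundant transcripts are therefore given below with their counts after the other scalings.

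**Figure D1:**
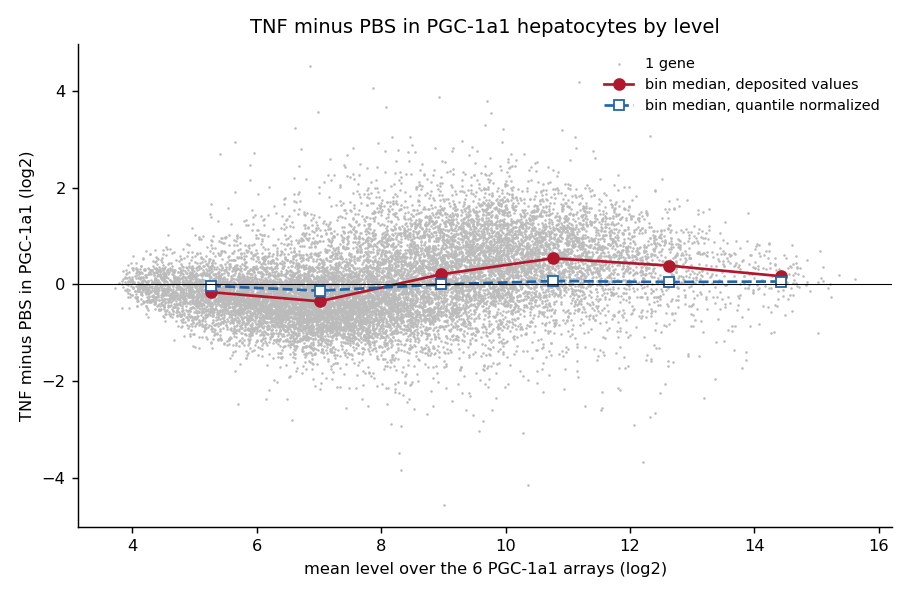
Each grey point is 1 of 15491 genes, with its mean log2 level over the 6 PGC-1a1 arrays on the x axis and its log2 difference, TNF minus PBS in PGC-1a1 cells (3 arrays each), on the y axis. Lines join the median difference in 6 bins of that level: with the deposited values (filled circles) it falls to -0.35 at levels of 6 to 8 and rises to 0.54 at 10 to 12, and after quantile normalization (open squares) it stays between -0.13 and 0.07.

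Components of TNF signalling were not moved one way. Of 20 measured genes for TNF receptors and their adaptors, 9 rose and 7 fell (7 and 6 in all 4 scalings; 7 and 9 after quantile normalization), with a median of 0.19. Tbk1, a kinase that acts beside the NF-kB pathway, was at 8.12, 8.28 and 8.32 with PBS and at 9.91, 9.97 and 9.91 with TNF. It rose by 1.69 ± 0.09 (3.23-fold, adjusted p = 3.81e-11), and its arrays were far apart between treatments beside their spread within each. The TAK1-binding adaptor genes Tab3 and Tab2 rose by 1.45 ± 0.08 and 0.89 ± 0.09. Map3k7, which encodes TAK1 itself, differed by -0.61 ± 0.07 on its brightest probe set, while 2 of 3 other probe sets were higher and the mean of all was 0.10. Tnfrsf1a, the main TNF receptor of hepatocytes, differed by -0.01 ± 0.08 with the deposited values and by -0.49 after quantile normalization.

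Inhibitors and subunits of NF-kB rose more often than they fell, 11 against 2 of 17 (8 and 1 in all 4 scalings), with a median of 0.40. These counts use the brightest probe set of each gene, also for Nfkbia and Nfkbib, whose probe sets disagree. Over the mean of probe sets 12 rose and 1 fell. Nfkbid, an atypical nuclear inhibitor of the IkB family, was at 6.74, 6.65 and 6.82 with PBS and at 8.43, 8.26 and 8.46 with TNF. It rose by 1.65 ± 0.15 (3.14-fold, adjusted p = 2.90e-08). In vector cells Nfkbid fell, by 0.58 on the log2 scale (TNF minus PBS -0.58 ± 0.15), so the responses had opposite signs and differed by 2.23 ± 0.21 (adjusted p = 7.25e-07).

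Tnfaip3, which encodes the ubiquitin-editing brake A20, rose from 9.70, 9.81 and 9.67 to 10.92, 11.33 and 11.50, a difference of 1.52 ± 0.14 (2.88-fold, adjusted p = 4.38e-08). The TNF arrays spread more widely than the PBS arrays, but the treatments did not overlap. Its response in vector cells was 0.50 ± 0.14, and the responses differed by 1.02 ± 0.20 (adjusted p = 0.00103). Nfkbiz, another nuclear IkB protein, rose by 1.80 ± 0.17, with a response 0.78 ± 0.23 above that in vector cells. Relb, a subunit of the noncanonical pathway, rose by 1.34 ± 0.12, and Bcl3, an IkB-like coactivator, by 0.86 ± 0.08. For Relb the difference from the vector response was -0.05 ± 0.16, and for Bcl3 it was 0.95 ± 0.12.

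The classical inhibitor genes depended on the probe set. Nfkbia, which encodes IkBalpha, differed by -1.01 ± 0.10 on its brightest probe set, 3 other probe sets were higher, and the mean of all 4 was 0.72. Nfkbib, which encodes IkBbeta, differed by 1.34 ± 0.11 on the brightest probe set, another was lower, and their mean was 0.29. No direction is given for either gene.

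Chemokine genes rose in 11 of 22 cases and fell in 5 (11 and 3 in all 4 scalings), with a median of 0.50. Cxcl10, a ligand of CXCR3 that draws T cells, was at 8.02, 8.49 and 8.53 with PBS and at 11.37, 11.69 and 11.61 with TNF. Its difference of 3.21 ± 0.17 (9.25-fold, adjusted p = 4.18e-11) was the highest in the list. Cxcl9, a ligand of the same receptor, rose by 1.98 ± 0.15. Cxcl3, a neutrophil attractant, was at 4.08, 4.35 and 4.13 with PBS, under the lower quartile of those arrays, and at 6.26, 7.37 and 7.74 with TNF. Its 2.94 ± 0.29 therefore starts from a level where the array resolves little. The skin chemokine gene Ccl27a rose by 1.07 ± 0.13.

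Ccl2, which recruits monocytes, was at 10.17, 10.69 and 10.39 with PBS and at 12.24, 12.66 and 12.90 with TNF (2.19 ± 0.27, 4.55-fold, adjusted p = 1.56e-06). In vector cells it started from a PBS mean of 12.52 and its response was 0.72 ± 0.27. The responses differed by 1.47 ± 0.39 (adjusted p = 0.00887). Further members of the list also had a larger response in PGC-1a1 than in vector cells. Cxcl1 rose by 2.01 ± 0.28 in PGC-1a1 cells (1.21 ± 0.40 above vector), Ccl20 by 1.77 ± 0.30 (1.30 ± 0.43 above) and Ccl9 by 1.04 ± 0.16 (1.23 ± 0.23 above). The Cxcl1 difference was not called without vector PBS array 2 (0.80) or 3 (1.13), vector TNF array 1 (1.17) or 2 (1.21), PGC-1a1 PBS array 1 (1.08) or PGC-1a1 TNF array 2 (1.18) or 3 (1.13). The Ccl20 difference was called in 3 of 12 fits without 1 array, those without vector PBS array 1, vector TNF array 3 or PGC-1a1 TNF array 1, and was at its lowest without vector PBS array 2 (0.98). In Ccl2, Cxcl1 and Ccl20 the PBS means of PGC-1a1 cells (10.42, 10.98 and 9.41) were below those of vector cells (12.52, 12.01 and 10.88), while the TNF means were 12.60, 12.99 and 11.18 in PGC-1a1 and 13.24, 12.81 and 11.34 in vector cells. In the whole list the response was above vector in 6 members and below it in 2, beside 13.4% and 12% of all genes.

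Cytokine and colony stimulating factor genes mostly had low levels. Of 17, 2 rose and 9 fell (4 fell without PBS array 2), but only 2 and 3 did so in all 4 scalings and 3 and 5 after quantile normalization, and the median was -0.34. Il23a, which encodes the p19 subunit of IL-23, was at 6.43, 6.41 and 7.10 with PBS and at 9.34, 9.70 and 10.08 with TNF, a rise of 3.06 ± 0.21 (8.34-fold, adjusted p = 9.20e-10). The rise in vector cells was 3.96 ± 0.21 (difference of the responses -0.90 ± 0.30, adjusted p = 0.0343). That difference was not called without vector PBS array 1 (-0.93) or 3 (-0.78), vector TNF array 3 (-0.82), PGC-1a1 PBS array 3 (-0.67) or PGC-1a1 TNF array 1 (-0.71) or 2 (-0.89). The alarmin gene Il33, the receptor antagonist gene Il1rn and the granulocyte factor gene Csf3 fell by 0.92, 0.80 and 0.77 on the log2 scale, Il33 to a level under the lower quartile.

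Genes of leukocyte adhesion and matrix breakdown went both ways, with 4 of 13 higher and 5 lower (3 and 1 in all 4 scalings; 6 and 2 after quantile normalization). Icam1, an adhesion ligand for leukocyte integrins, was at 9.85, 10.03 and 10.20 with PBS and at 12.76, 12.79 and 12.82 with TNF. It rose by 2.76 ± 0.15 (6.77-fold, adjusted p = 3.83e-11). Vcam1, an adhesion ligand of the same class, rose by 1.25 ± 0.12, and its response minus that of vector cells was -0.57, not called without vector PBS array 2 (-0.49), vector TNF array 3 (-0.48) or PGC-1a1 TNF array 2 (-0.49). Mmp13, a collagenase gene under the lower quartile of the PBS arrays, rose by 1.91 ± 0.20 against 3.25 ± 0.20 in vector cells. Ptgs2, which encodes the inducible cyclooxygenase, fell by 1.16 on the log2 scale to a level under the lower quartile.

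**Figure D2:**
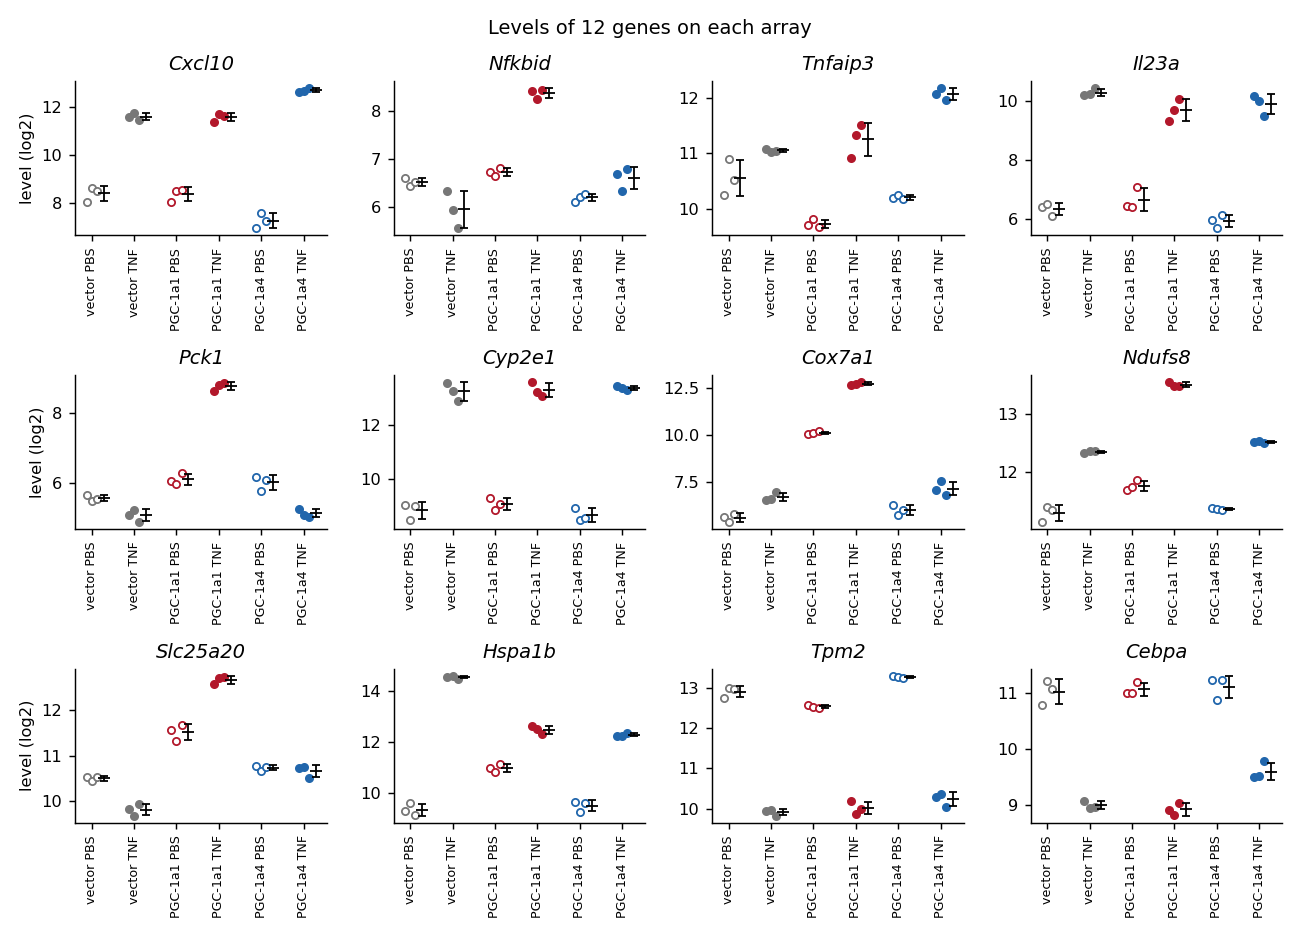
Log2 levels of 12 genes on each of the 18 arrays; open circles are PBS arrays, filled circles TNF arrays, and black bars the mean ± SD of 3 arrays, with vector in grey, PGC-1a1 in red and PGC-1a4 in blue. Cxcl10 reaches 11.37 to 11.69 on the PGC-1a1 TNF arrays, Pck1 and Nfkbid are higher with TNF in PGC-1a1 and not in vector cells, and Hspa1b has a mean of 14.56 in vector TNF cells against 12.49 in PGC-1a1 TNF cells.

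Interferon and antigen processing genes were called lower in 7 of 20 cases and higher in 5 (6 and 5 in all 4 scalings). Over all genes 35.0% were lower and 34.6% higher (20.5% and 26.6% in all 4 scalings). Stat2, which carries interferon signals to the nucleus, fell by 0.76 on the log2 scale in PGC-1a1 cells and by 1.56 in vector cells, and the responses differed by 0.80. The class I genes H2-K1 and H2-D1 differed by -0.54 ± 0.07 and -0.47 ± 0.06, although 1 of 3 other H2-D1 probe sets was higher and their mean was 0.18. The immunoproteasome gene Psmb10 rose by 0.66 ± 0.09, and its response was 0.95 above that in vector cells.

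The acute phase list holds plasma proteins that the liver makes in inflammation. Of 22 members, 7 rose and 12 fell (5 and 10 in all 4 scalings), with a median of -0.36. After quantile normalization or cyclic loess 5 rose and 13 fell, and after centring 8 and 10. Saa1, a serum amyloid A gene with close paralogs, was at 11.09, 10.50 and 10.79 with PBS and at 13.99, 13.82 and 13.78 with TNF, a rise of 3.07 ± 0.15 (8.4-fold, adjusted p = 1.25e-11). The orosomucoid gene Orm2, also one of a close family, rose by 2.43 ± 0.11. Their responses minus those of vector cells were -0.05 ± 0.21 and 0.04 ± 0.16, neither called. Apcs, the serum amyloid P gene, rose from 10.16, 10.06 and 10.25 to 11.84, 11.94 and 12.14, and its 1.82 ± 0.10 was 1.04 ± 0.14 above the vector response.

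Fibrinogen and haptoglobin genes were lower. Fgb, the fibrinogen beta chain, was at 13.53, 13.81 and 13.84 with PBS and at 11.32, 11.00 and 10.91 with TNF, a difference of -2.65 ± 0.13 (6.27-fold, adjusted p = 1.82e-11). The alpha chain gene Fga fell by 2.14 and the gamma chain gene Fgg by 0.94 on the log2 scale. Hp, which encodes haptoglobin, was at 14.50, 14.77 and 14.70 with PBS and at 12.84, 12.95 and 13.01 with TNF, so it fell by 1.72 on the log2 scale against 2.91 in vector cells. The responses of 13 of the 22 acute phase genes were above those in vector cells and 0 were below, beside 13.4% and 12% of all genes. Among them, Crp and Lbp, which encode a pattern recognition protein and the lipopolysaccharide-binding protein, had differences of -0.57 and -0.79 in PGC-1a1 and of -1.72 and -1.69 in vector cells.

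Immediate early genes rose in 14 of 26 cases and fell in 3 (11 and 3 in all 4 scalings; 13 and 8 after quantile normalization or cyclic loess), with a median of 0.37. Maff, a small Maf factor, was at 9.37, 9.46 and 9.57 with PBS and at 11.99, 11.83 and 11.88 with TNF, a rise of 2.43 ± 0.10 (5.39-fold, adjusted p = 1.95e-12). Klf4, Egr1 and Fos, early transcription factors, rose by 1.51 ± 0.08, 1.62 ± 0.11 and 1.20 ± 0.09. Fosl1, an AP-1 subunit gene, rose by 1.26 ± 0.12. In vector cells the same genes rose further. The differences between the responses were -1.09 ± 0.14 for Maff, -1.37 ± 0.12 for Klf4, -0.59 ± 0.15 for Egr1, -0.70 for Fos and -1.59 ± 0.17 for Fosl1. In the list, 14 responses were below vector and 1 above, beside 12% and 13.4% of all genes.

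The lists of stress responses had the same order of medians, lower in PGC-1a1 than in vector cells. For genes of the unfolded protein and integrated stress response the medians were 0.52 and 0.99, and 18 of 27 rose and 4 fell in PGC-1a1 cells (13 and 2 in all 4 scalings). After quantile normalization 15 rose and 7 fell with a median of 0.28, and after cyclic loess 13 and 8 with a median of 0.18. Ddit3, the stress factor CHOP, was at 9.90, 9.94 and 10.03 with PBS and at 12.05, 11.97 and 12.10 with TNF (2.08 ± 0.09, 4.24-fold). The secreted chaperone-like factor gene Manf and the asparagine synthetase gene Asns rose by 1.74 ± 0.08 and 1.30 ± 0.08, beside 1.95 and 1.39 in vector cells. Pdia4, a disulfide isomerase of the endoplasmic reticulum, rose by 1.28 ± 0.09 against 2.92 ± 0.09 in vector cells. In the list, 14 responses were below vector and 1 above, beside 12% and 13.4% of all genes.

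Heat shock protein genes as a list had a median of 0.03 in PGC-1a1 and of 0.49 in vector cells. Hspa1b, an inducible HSP70 gene with a near-identical copy, was at 10.99, 10.83 and 11.16 with PBS and at 12.63, 12.51 and 12.33 with TNF, a rise of 1.5 ± 0.13. In vector cells its mean went from 9.36 to 14.56, so the responses differed by -3.70 ± 0.18 (adjusted p = 8.52e-10). Hsph1, a partner of HSP70, rose by 0.85 ± 0.08 against 2.30 ± 0.08, and Hspb1, a small heat shock protein gene, fell by 0.87 on the log2 scale where the vector difference was 0.07. Hspe1, the mitochondrial HSP10 gene, rose by 1.32 ± 0.10, and its difference from the vector response, -0.38, was not called. Of 18 members, 6 rose and 7 fell in PGC-1a1 cells, and 3 and 4 did so in all 4 scalings. The counts were 10 and 4 after centring, 3 and 9 after quantile normalization and 3 and 11 after cyclic loess. In the list, 15 responses were below vector and 0 above, beside 12% and 13.4% of all genes.

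Targets of p53 rose in 11 of 16 cases and fell in 1 (7 and 1 in all 4 scalings), with a median of 0.34 against 0.82 in vector cells. After quantile normalization 7 p53 targets rose and 6 fell, with a median of 0.12, after cyclic loess 8 and 5, and over the mean of probe sets 9 and 4. Plk3, a stress kinase gene, rose by 1.91 ± 0.12, the receptor gene Eda2r by 1.05 ± 0.09 and the cyclin gene Ccng1 by 0.89 ± 0.09, and the polymerase gene Polk fell by 1.03. Of the 16 responses, 10 were below vector and 0 above, beside 12% and 13.4% of all genes. Targets of NRF2, the factor of the antioxidant response, rose in 9 of 18 cases and fell in 4 (4 and 3 in all 4 scalings; 4 and 8 after quantile normalization), with medians of 0.21 and 0.69. Sqstm1, the autophagy receptor p62, rose by 1.53 ± 0.10, Taldo1 and Pgd of the pentose phosphate pathway by 0.91 ± 0.07 and 0.65 ± 0.07, and Me1 fell by 0.84. Nqo1, a quinone reductase, rose by 0.68 ± 0.10 against 1.85 ± 0.10 in vector cells. Of the 18, 11 responses were below vector and 0 above, beside the same shares of all genes. For Pgd, 1 of 3 other probe sets was lower.

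Genes of superoxide and peroxide removal were split, with 6 of 14 higher and 2 lower (2 and 2 in all 4 scalings; 3 and 7 after quantile normalization) and a median of 0.10. Sod2, the mitochondrial superoxide dismutase, rose from 12.53, 12.40 and 12.65 to 13.51, 13.46 and 13.60, by 1.00 ± 0.13. The methionine sulfoxide reductase gene Msra rose by 1.14 ± 0.10, and the extracellular enzyme gene Sod3 fell by 1.43. Prdx3, a mitochondrial peroxiredoxin, had a difference of 0.50 ± 0.09 that was not called in all 4 scalings. In this list 5 of the 14 responses were above vector and 1 below, beside 13.4% and 12% of all genes.

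Genes of the BCL2 and survival list were called in both directions. Of 20, 11 rose and 6 fell, but only 4 and 5 in all 4 scalings, and 4 rose and 9 fell after quantile normalization. The counts in all 4 scalings were near the shares over all genes (26.6% higher and 20.5% lower). Birc3, the inhibitor of apoptosis cIAP2, was at 8.58, 8.66 and 8.63 with PBS and at 10.64, 10.77 and 11.03 with TNF, a rise of 2.19 ± 0.09 (4.57-fold, adjusted p = 2.07e-12). Birc5, which encodes survivin, and the BCL2 relative Bok fell by 1.65 and 1.02 on the log2 scale. Bad differed by -0.64 ± 0.08, while its other probe set was higher and the mean was 0.15.

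Bik, a BH3-only activator of cell death, had responses of opposite sign. Its PBS levels were 8.25, 8.29 and 8.45 and its TNF levels 9.52, 9.89 and 9.93, a rise of 1.45 ± 0.21, where the vector difference was -1.08 ± 0.21. The responses differed by 2.53 ± 0.30 (adjusted p = 8.95e-06). Casp6, an executioner caspase, went from 10.34, 10.33 and 10.50 to 11.81, 11.93 and 11.94, a rise of 1.5 ± 0.09, where the vector difference was -0.11 ± 0.09 (difference of responses 1.61 ± 0.12). In the list of caspases and regulators 7 of 14 rose and 1 fell (5 and 0 in all 4 scalings; 6 and 3 after quantile normalization; 0 fell without PBS array 1, PBS array 3, TNF array 1 or TNF array 2). Endog, a mitochondrial nuclease, rose by 2.31 ± 0.13, and Aifm1 and Htra2, further proteins that mitochondria release in cell death, rose by 0.60 ± 0.09 and 0.82 ± 0.13.

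Transcripts of respiratory complex I in mitochondria were higher with TNF in most members, also in all 4 scalings. Of 33 measured subunits of complex I, the NADH dehydrogenase, 31 rose and 0 fell (27 and 0 in all 4 scalings; 27 and 1 after cyclic loess), with a median of 1.00, or 0.65 after quantile normalization. Ndufs8, an iron-sulfur subunit, was at 11.69, 11.75 and 11.86 with PBS and at 13.55, 13.48 and 13.47 with TNF (1.73 ± 0.08, 3.32-fold, adjusted p = 6.15e-12). Of its 4 other probe sets, 1 was lower. Ndufa10, Ndufa12 and Ndufa5, accessory subunits, rose by 1.76 ± 0.08, 1.5 ± 0.09 and 1.12 ± 0.07, and Ndufs4, another accessory subunit, by 1.94 ± 0.12. Ndufs3, a core subunit, rose by 1.00 ± 0.07 against 0.15 ± 0.07 in vector cells. The vector median for complex I was 0.53, and 19 responses were above vector and 0 below, beside 13.4% and 12% of all genes.

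In complexes II to V the counts depended on the scaling. With the deposited values 30 of 37 genes rose and 1 fell, 15 and 1 in all 4 scalings, and 15 and 10 after cyclic loess. The median was 0.44, beside 0.39 over all genes at levels of 12 to 14, and was 0.08 after cyclic loess. Cox7a1, a cytochrome oxidase isoform typical of muscle, was at 10.09, 10.11 and 10.21 with PBS and at 12.70, 12.72 and 12.85 with TNF (2.62 ± 0.17, 6.15-fold, adjusted p = 3.32e-10). In vector cells Cox7a1 went from 5.62, under the lower quartile, to 6.70, so the PBS levels of the virus groups also lay far apart, and the responses differed by 1.54 ± 0.23. Uqcrc2 and Uqcr11 of complex III rose by 1.53 ± 0.07 and 1.58 ± 0.08, and Atp5h, Atp5e and Atp5l of ATP synthase by 0.80 ± 0.07, 1.83 ± 0.17 and 0.87 ± 0.08. Sdhc, an anchor of complex II, was the gene that fell (-1.01 ± 0.10). Responses were above vector in 18 of 37 members and below in 1, beside 13.4% and 12% of all genes.

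Mitochondrial ribosomal protein genes rose in 58 of 62 cases and fell in 2 (46 and 2 in all 4 scalings; 46 and 6 after quantile normalization), with a median of 1.01 against 0.57 in vector cells. Mrpl48 rose from 9.51, 9.47 and 9.61 to 11.40, 11.45 and 11.47, by 1.91 ± 0.07. Mrpl47, Mrps10 and Mrpl18 rose by 1.97 ± 0.09, 1.86 ± 0.09 and 1.68 ± 0.08, and Mrps15 fell by 0.65. Responses were above vector in 28 members and below in 0, beside 13.4% and 12% of all genes. Regulators of mitochondrial biogenesis were higher in 12 of 18 cases and lower in 6 (9 and 2 in all 4 scalings). The mitochondrial transcription factors Tfb2m and Tfam rose by 1.83 ± 0.09 and 1.58 ± 0.09, and the PGC-1 relative Pprc1 by 1.15 ± 0.08, beside 2.09, 1.40 and 1.42 in vector cells. The corepressor gene Nrip1 differed by 1.62 ± 0.10, with 1 of 3 other probe sets lower.

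Among regulators known to work with PGC-1a1, Esrra and Sirt3 had responses of opposite sign in PGC-1a1 and vector cells. Esrra, the estrogen-related receptor alpha, was at 8.87, 8.75 and 8.80 with PBS and at 9.50, 9.33 and 9.19 with TNF, a rise of 0.54 ± 0.12, where vector cells had -0.70 ± 0.12. Sirt3, a mitochondrial deacetylase, was at 9.70, 9.62 and 9.86 and at 10.17, 10.19 and 10.31, with a difference of 0.50 ± 0.10 (0.07 and not called after quantile normalization) where vector cells had -1.45 ± 0.10. The differences between the responses were 1.24 ± 0.16 and 1.95 ± 0.15, both called in all 4 scalings.

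Genes of the TCA cycle and pyruvate entry rose in 15 of 21 cases and fell in 2 (11 and 1 in all 4 scalings), with a median of 0.59 against 0.53 in vector cells. That median was near the 0.54 of all genes at levels of 10 to 12, and the list's mean level was 10.76 to 11.42. After quantile normalization 11 rose and 2 fell with a median of 0.23, and after cyclic loess 12 and 3 with a median of 0.27. Idh3g, Ogdh and Pdhb, dehydrogenase subunits, rose by 1.62 ± 0.09, 1.61 ± 0.12 and 0.86 ± 0.08. Cs, the citrate synthase gene, rose by 0.68 ± 0.07 where the vector difference was -0.29. Pdk4, the kinase that shuts pyruvate dehydrogenase, rose by 1.19 ± 0.11 and by 2.86 in vector cells, a difference of -1.67 ± 0.16.

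In the list of fatty acid oxidation and PPAR targets 16 of 25 genes rose and 4 fell (10 and 2 in all 4 scalings; 11 and 6 after cyclic loess), and the median was 0.46 against 0.05 in vector cells. Slc25a20, the carnitine carrier of the inner membrane, was at 11.57, 11.32 and 11.68 with PBS and at 12.57, 12.72 and 12.73 with TNF. Its rise of 1.15 ± 0.10 (adjusted p = 1.88e-08) stood against -0.69 ± 0.10 in vector cells, and the responses differed by 1.84 ± 0.14 (adjusted p = 8.42e-08). Acadvl, the very long chain dehydrogenase gene, had differences of 0.70 ± 0.10 and -0.72, and Cpt1a and Cpt2, the carnitine palmitoyltransferases, of 0.39 and 0.46 against -0.77 and -0.54, the first pair not called in all 4 scalings. Ppara, the receptor that controls the program, rose by 1.60 ± 0.17 against 0.31 ± 0.17. Fabp3, a fatty acid binding protein gene, rose from 7.90, 7.93 and 8.28 to 10.72, 10.96 and 10.98 (2.85 ± 0.19, 7.23-fold), 1.81 ± 0.27 above vector, where its PBS level was under the lower quartile. The lipid droplet gene Cidea, the peroxisomal thiolase gene Acaa1b and the isomerase gene Eci2 rose by 1.67 ± 0.10, 2.28 ± 0.20 and 1.11 ± 0.10. Of the 25 responses, 15 were above vector and 2 below, beside 13.4% and 12% of all genes.

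Gluconeogenic genes had some of the furthest separated responses. Pck1, the cytosolic PEP carboxykinase, was at 6.06, 5.98 and 6.28 with PBS and at 8.65, 8.82 and 8.88 with TNF, a rise of 2.68 ± 0.12 (6.4-fold, adjusted p = 6.15e-12). In vector cells, where Pck1 was under the lower quartile with either treatment, it differed by -0.50 ± 0.12, and the responses differed by 3.18 ± 0.17 (adjusted p = 1.27e-09). A second Pck1 probe set was not called, and the mean over both was 1.17. G6pc, glucose-6-phosphatase, was at 9.38, 8.97 and 9.54 with PBS and at 9.96, 9.79 and 9.66 with TNF. Its 0.50 ± 0.17 was not called after quantile normalization (0.16), without PBS array 2 (0.34) or without TNF array 1 (0.43). In vector cells G6pc fell by 2.84 on the log2 scale, and the difference of 3.35 ± 0.25 between the responses was called in all 4 scalings.

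Over the list, 8 of 13 gluconeogenic genes rose and 3 fell with the deposited values, but 4 and 1 did in all 4 scalings, and 4 rose and 5 fell after quantile normalization. Igfbp1, an insulin-repressed secreted protein gene, fell by 1.20, and Ppp1r3c, a glycogen-targeting subunit, and Creb1, the cAMP factor gene, had differences of 1.39 ± 0.09 and 0.76 ± 0.11, each with another probe set lower. Of the 13 responses, 5 were above vector and 0 below, beside 13.4% and 12% of all genes. Glycolytic genes rose in 7 of 16 cases and fell in 7 (5 and 6 in all 4 scalings; 5 and 10 after cyclic loess). Pklr, the liver pyruvate kinase, fell by 2.12 on the log2 scale, Pkm by 1.26 and the phosphofructokinase gene Pfkl by 1.53, and the glucose transporter gene Slc2a1 rose by 1.31 ± 0.10 against 2.66 in vector cells.

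**Figure D3:**
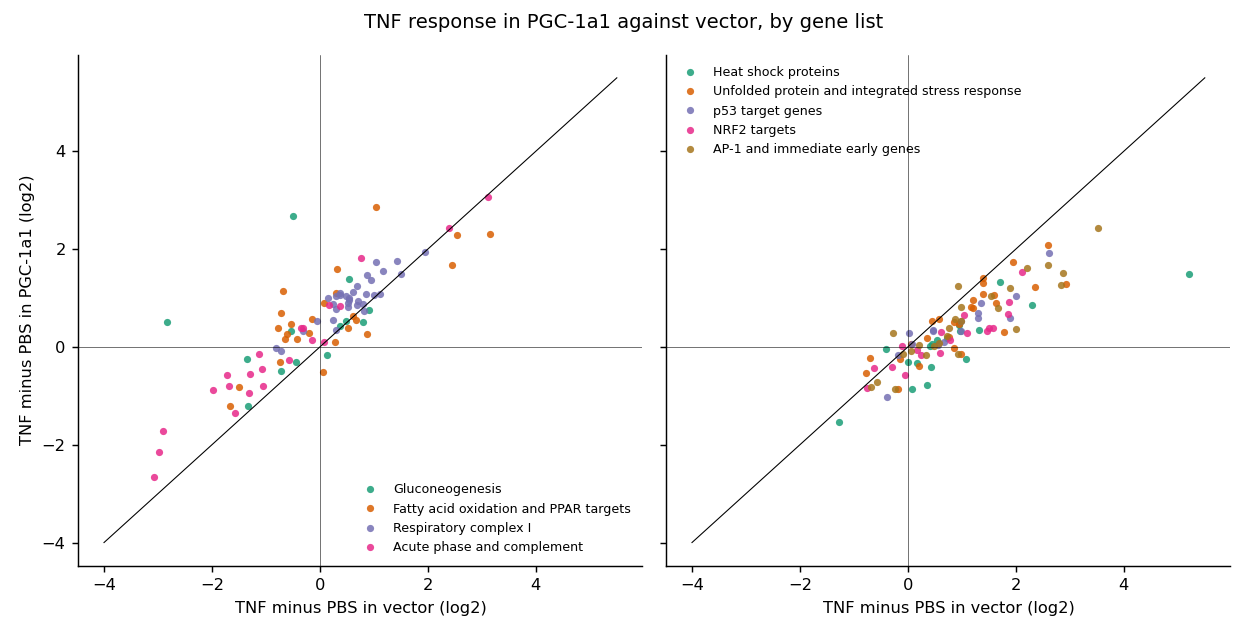
Each point is a gene, with TNF minus PBS (log2) in vector cells on the x axis and in PGC-1a1 cells on the y axis; the diagonal marks equal responses and colours mark the gene lists. Points of complex I, acute phase, gluconeogenesis and fatty acid oxidation (left) lie mostly above the diagonal and those of the stress and AP-1 lists (right) mostly below it, with Hspa1b farthest right at 5.20 and 1.5.

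In cholesterol and fatty acid synthesis 16 of 26 genes rose and 5 fell (10 and 2 in all 4 scalings; 10 and 7 after quantile normalization), with a median of 0.53, which was 0.04 after quantile normalization. Thrsp, a lipogenic regulator, differed by 2.06 ± 0.13, with 1 of 2 other probe sets lower, against 0.34 in vector cells. Mvd and Pmvk of the mevalonate pathway rose by 1.20 ± 0.09 and 1.58 ± 0.15. Sc5d, a sterol desaturase gene, differed by 1.02 ± 0.10, but its other probe set was lower and their mean was 0.19. Bile acid genes fell in 6 of 13 cases and rose in 1 (5 and 1 in all 4 scalings; 9 and 1 after quantile normalization), with a median of -0.43. Fgfr4, the receptor that restrains bile acid synthesis, fell by 1.36, Cyp7a1, the rate-limiting enzyme, by 1.10, the uptake carrier gene Slco1b2 by 1.02 and the sterol exporter gene Abcg8 by 0.77 on the log2 scale. Cyp7b1 differed by 1.26 ± 0.12, with 1 of 2 other probe sets lower.

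Drug metabolism genes rose more often than they fell. In cytochrome P450 families 1 to 3, 12 of 25 rose and 3 fell (8 and 2 in all 4 scalings). The mean level of this list was 9.07 to 9.93 on the 6 arrays. Of all 4338 genes at levels of 8 to 10, 2082 were higher and 1298 lower, so rises were common at that level whatever the list. In all 4 scalings 26.6% of all genes were higher and 20.5% lower. Cyp2e1, which oxidizes ethanol, was at 9.31, 8.88 and 9.09 with PBS and at 13.57, 13.21 and 13.04 with TNF, a rise of 4.18 ± 0.19 (18.1-fold, adjusted p = 6.15e-12), close to the 4.35 ± 0.19 of vector cells (difference -0.17 ± 0.26). Cyp2c50, Cyp3a25 and Cyp2d26, members of families with close paralogs, rose by 2.53 ± 0.13, 2.37 ± 0.19 and 1.93 ± 0.12.

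Conjugating enzyme genes rose in 10 of 18 cases and fell in 3 (9 and 3 in all 4 scalings; 9 and 6 after quantile normalization; 5 fell without PBS array 2). The sulfotransferase gene Sult1b1 rose from 7.02, 6.58 and 7.04 to 9.58, 9.73 and 9.66 (2.78 ± 0.15), 1.36 ± 0.21 above vector. The glutathione transferase genes Gstm2 and Gstt1 rose by 1.23 ± 0.13 and 0.89 ± 0.09. Tpmt differed by 1.11 ± 0.14 while both other probe sets were lower, and the mean was -0.02. Nr1i2, the xenobiotic receptor PXR, rose by 0.92 ± 0.12 where vector cells had -0.98, and the responses differed by 1.90 ± 0.17.

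Amino acid catabolism was split. Of 20 genes 9 rose and 7 fell, with a median of 0.09. The counts were 8 and 6 in all 4 scalings, and 8 and 10 after quantile normalization. In this list 8 responses were above vector and 0 below, beside 13.4% and 12% of all genes. Glud1, glutamate dehydrogenase, was at 14.32, 14.38 and 14.36 with PBS and at 11.96, 12.06 and 12.01 with TNF, so it fell by 2.35 on the log2 scale (5.08-fold, adjusted p = 1.29e-13), and its second probe set fell too. Bckdhb, a subunit of the branched-chain dehydrogenase, rose from 8.68, 8.66 and 8.88 to 11.37, 11.42 and 11.49 (2.69 ± 0.10). Cth, of cysteine synthesis, rose by 1.41 ± 0.11, and Nags, which makes the activator of the urea cycle, by 1.12 ± 0.10 against -0.42 in vector cells. Kynu, kynureninase of tryptophan breakdown, was at 9.29, 9.29 and 9.48 and at 10.58, 10.55 and 10.53, a rise of 1.20 ± 0.18 where vector cells had -2.37 ± 0.18.

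Hepatocyte transcription factors fell in 9 of 18 cases and rose in 2 (5 and 1 in all 4 scalings), with a median of -0.33. Cebpa was at 11.00, 10.99 and 11.19 with PBS and at 8.91, 8.83 and 9.05 with TNF, so it fell by 2.13 on the log2 scale (4.39-fold, adjusted p = 8.75e-11). Its relative Cebpb, an acute phase factor, rose by 0.96 ± 0.08, and Prox1 and Nr5a2 fell by 1.68 and 0.82. In vector cells the same 4 genes differed by -2.01, 0.90, -1.90 and -0.87.

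Hnf4a, a partner of PGC-1a1, was at 11.39, 11.37 and 11.56 with PBS and at 11.21, 11.21 and 11.27 with TNF (-0.21 ± 0.10, adjusted p = 0.0742), and it was called lower after quantile normalization (-0.69) and over the mean of its probe sets (-1.11). In vector cells the same probe set went from 11.77 to 8.99, and the responses differed by 2.57 ± 0.15 (adjusted p = 3.31e-09).

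Kruppel-like factor genes were called higher in 5 of 14 cases and lower in 5 (4 and 3 in all 4 scalings). These counts were near the shares over all genes, 34.6% higher and 35.0% lower (26.6% and 20.5% in all 4 scalings). Besides Klf4, Klf9 and Klf6 differed by 2.05 ± 0.09 and 0.80 ± 0.08, each with 1 other probe set lower, and Klf3 fell by 0.69. In the insulin, IGF and FOXO list 8 of 25 genes rose and 12 fell (5 and 9 in all 4 scalings). Igfbp4, which binds insulin-like growth factors, was at 13.62, 13.72 and 13.73 with PBS and at 10.86, 10.93 and 11.06 with TNF, so it fell by 2.74 on the log2 scale, and all 5 other probe sets fell. Pik3r1, a regulatory subunit of PI3-kinase, fell by 1.68, and the adaptor gene Irs2 and the cytokine-inducible gene Cish rose by 1.40 ± 0.09 and 1.15 ± 0.08.

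Actin cytoskeleton genes and targets of SRF, the factor that responds to actin state, fell in 18 of 19 cases and rose in 0 (17 and 0 in all 4 scalings), with a median of -1.14 against -1.10 in vector cells. Tpm2, a tropomyosin gene, was at 12.58, 12.52 and 12.51 with PBS and at 10.18, 9.88 and 10 with TNF, so it fell by 2.52 on the log2 scale (5.72-fold, adjusted p = 1.95e-12). The filamin gene Flna, the calponin gene Cnn1 and Srf fell by 2.04, 2.51 and 1.33. Ccn2, a matricellular growth factor, was at 13.48, 13.52 and 13.56 and at 10.16, 10.68 and 10.98 and fell by 2.91, further than in vector cells (-1.80, difference -1.11 ± 0.20). Actb was lower on its brightest probe set (-1.01 ± 0.06) and higher on another, with a mean of 0.54, so no direction is given for it.

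Housekeeping complexes depended on the scaling. Cytosolic ribosomal protein genes rose in 20 of 33 cases and fell in 2 (1 without any array other than TNF array 1), but 8 and 0 did so in all 4 scalings and 9 rose and 10 fell after cyclic loess. Rpl14, Rps6, Rpl12 and Rpl35 rose by 1.73 ± 0.10, 1.77 ± 0.15, 0.92 ± 0.09 and 0.86 ± 0.10. Proteasome genes rose in 23 of 30 cases and fell in 1, in 10 and 1 in all 4 scalings, and in 12 and 7 after quantile normalization. Psmc1 and Psmc2, ATPase subunits, differed by 1.85 ± 0.09 and 1.15 ± 0.07, each with another probe set lower, and Psmb3 and Psmb2 of the core rose by 1.03 ± 0.07 and 0.99 ± 0.07.

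**Figure D4:**
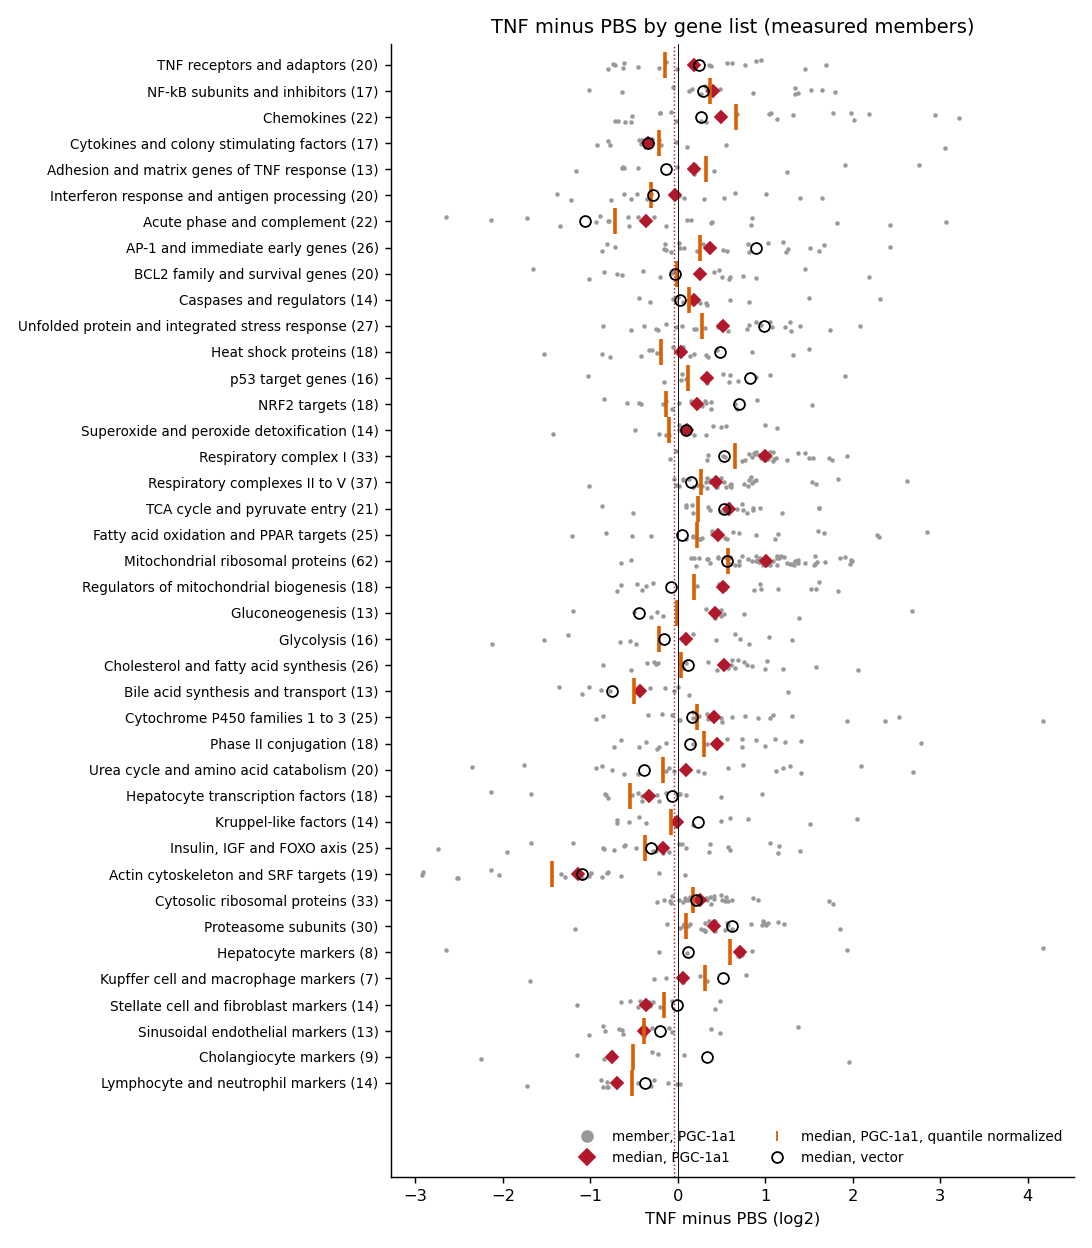
Log2 difference, TNF minus PBS, for the measured members of 40 gene lists (number in brackets): grey points are members in PGC-1a1 cells, red diamonds their median, orange bars the median after quantile normalization and open circles the median in vector cells; the dotted line is the median of all genes. Medians range from -1.14 for actin and SRF targets to 1.01 for mitochondrial ribosomal proteins, and the stress lists have higher medians in vector than in PGC-1a1 cells.

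Over all genes, the 15 highest differences among called genes whose arrays did not overlap ran from 3.06 to 4.52. Upp2, uridine phosphorylase 2, was at 4.53, 4.63 and 4.64 with PBS, under the lower quartile of those arrays, and at 9.38, 9.0 and 8.97 with TNF. Its difference of 4.52 ± 0.11 (23-fold, adjusted p = 1.09e-14) had no counterpart in vector cells, where it was 0.22 ± 0.11 and the level under the lower quartile with either treatment. After Upp2 and Cyp2e1 came Calr3, a testis calreticulin gene (4.06 ± 0.14), and Nefm, a neurofilament gene (3.87 ± 0.14). Serpinb9g (3.80), Gca (3.68), Paip1 (3.57), the estrogen sulfotransferase gene Sult1e1 (3.55), Obp2a (3.29), Gata3 (3.23), the potassium channel gene Kcnk1 (3.19) and the mitochondrial carrier gene Slc25a36 (3.06) followed, with Cxcl10, Saa1 and Il23a among them. Of these, Gca, Gata3, Kcnk1 and Sult1e1 had responses above vector by 1.62, 1.61, 1.85 and 1.16. Serpinb9g belongs to a family of close paralogs, and Calr3, Paip1 and Gata3 started under the lower quartile of the PBS arrays, as Gca and Gata3 did in vector cells.

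The lowest 15 ran from -2.68 to -4.56. Steap4, a metalloreductase gene, was at 10.95, 11.54 and 11.38 with PBS and at 6.44, 6.65 and 7.11 with TNF, so it fell by 4.56 on the log2 scale (23.5-fold, adjusted p = 3.98e-11). Acta1, skeletal muscle actin, went from 12.46, 12.50 and 12.33 to 8.54, 8.01 and 8.30 and fell by 4.15. Cfl1, which encodes the actin-severing protein cofilin, fell by 3.68, from levels of 13.97 to 14.09. Fgf13 fell by 3.83, the LIM domain genes Lmcd1 and Fblim1 by 3.49 and 2.68, Cited2, a CBP-binding regulator, by 3.08, Ibtk by 3.04 and the muscle ankyrin repeat gene Ankrd1 by 2.92. Kalrn, F8a, Msrb3 and the flavin monooxygenase gene Fmo5 fell by 2.88, 2.82, 2.81 and 2.71 (Msrb3 to a level under the lower quartile), and Ccn2 and Igfbp4 belong to the same group. Fmo5 fell less than in vector cells (1.68 ± 0.20 between the responses) and Cited2 fell further (-1.24 ± 0.16).

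Markers of other liver cells were read on the same arrays, since fewer cells of a type and less RNA per cell cannot be told apart in bulk RNA. Summed levels of 8 hepatocyte markers were 16.76 to 16.84 with PBS and 17.15 to 17.23 with TNF on the log2 scale, 5 rose and 1 fell (as many in all 4 scalings), and Alb differed by 0.11 ± 0.06. The risers included Cyp2e1, Asgr1 (1.94 ± 0.20) and Serpina1c (0.69 ± 0.06), and Fgb was the gene that fell. The marker lists of the other cell types had mean levels of 6.46 to 7.64 on these arrays. Of 5196 genes at levels of 6 to 8, 796 rose and 2676 fell, so falls were common at that level whatever the list. Lymphocyte and neutrophil markers fell in 9 of 14 cases and rose in 0 (7 and 0 in all 4 scalings), with summed levels of 11.12 to 11.31 and 10.51 to 10.60. Gzma, Cd8a, Cd3e and Ms4a1 fell by 0.88, 0.80, 0.81 and 1.72. Stellate cell markers fell in 7 of 14 cases and rose in 2 (1 and 2 in all 4 scalings), with summed levels of 11.61 to 11.78 and 11.17 to 11.21. Among them Acta2 fell by 1.15 and Pdgfrb rose by 0.48 ± 0.13, and Lrat (-0.65) and Colec11 (-0.55) were not called in all 4 scalings.

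Sinusoidal endothelial markers fell in 8 of 13 cases and rose in 3 (4 and 3 in all 4 scalings), with sums of 11.86 to 11.92 and 11.47 to 11.66. Fcgr2b, Egfl7 and Oit3 fell by 1.01, 0.63 and 0.86, and Lyve1 rose by 1.37 ± 0.14 against 3.05 in vector cells. Kupffer cell and macrophage markers rose in 1 of 7 cases (2 without PBS array 3 or TNF array 2) and fell in 1 (3 without TNF array 1), as many in all 4 scalings and 3 and 2 after quantile normalization, with sums of 11.15 to 11.31 and 11.46 to 11.54. Cd14 rose by 0.78 ± 0.12 and Mpeg1 fell by 1.69, and Lyz2 (0.33 ± 0.15) and Csf1r (-0.27 ± 0.13) were not called. Lyz2 was called without PBS array 3 (0.47) or TNF array 2 (0.45), and Csf1r without TNF array 1 (-0.37). Cholangiocyte markers fell in 5 of 9 cases and rose in 1 (as many in all 4 scalings), with sums of 11.49 to 11.56 and 11.38 to 11.58. Krt23 rose by 1.96 ± 0.13, Sox9 and Cldn7 fell by 1.15 and 0.76, and Epcam differed by -2.25 ± 0.10 on 1 probe set with the other higher and a mean of -0.09. The part of these cells in the cytokine, adhesion and actin results above was not tested.

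Over all genes, the TNF response of PGC-1a1 cells differed from that of vector cells in 3943 genes (25.5%), above in 2083 (13.4%) and below in 1860 (12%), and 1852 and 1621 of them did so in all 4 scalings. The compared responses share no array. TNF minus PBS was called in 11041 genes (71.3%) in vector cells, 34.7% higher and 36.6% lower, and 8543 genes were called the same way in both. Opposite calls were made in 439 genes, 320 of them higher in PGC-1a1 and lower in vector cells. The difference between the responses was called in all 439, but opposite calls in the same fit nearly fix that outcome, so it adds no support. The standard deviation of the differences over genes was 0.78 in PGC-1a1 and 0.87 in vector cells.

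The furthest positive differences from the vector response were in Upp2 (4.30), Kynu (3.57), Glyctk (3.52), G6pc (3.35), Pck1 (3.18), Plin5 (3.12), Aspa (3.04), Qprt (2.88), Cpn2 (2.85) and the antisense transcript Mkln1os (2.71). Glyctk, glycerate kinase, had a vector difference of -3.30 ± 0.13 and 0.23 ± 0.13 in PGC-1a1 cells. Plin5, a lipid droplet protein that meets mitochondria, rose by 1.83 ± 0.12 where vector cells had -1.29 ± 0.12. Aspa, aspartoacylase, and Qprt of NAD synthesis rose by 1.97 ± 0.18 and 0.91 ± 0.11 where vector cells had -1.07 and -1.97, and Cpn2, a carboxypeptidase N subunit, by 1.15 ± 0.12 where vector cells had -1.70. All of the protein-coding genes in this group except Upp2 fell in vector cells.

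The furthest negative differences were in Hspa1b (-3.70), Speer4a (-3.08), Krt20 (-2.73), Dppa3 (-2.70), Tafa2 (-2.51), Sema3e (-2.47), Lce1f (-2.44), Sox11 (-2.40), Lrp8 (-2.29) and Nts (-2.26). In vector cells these rose by 1.80 to 5.20. Krt20, a keratin gene, fell by 0.57 in PGC-1a1 cells and rose by 2.15 in vector cells, and Nts, the neurotensin gene, rose by 0.71 ± 0.16 and 2.97 ± 0.16. Speer4a and Tafa2 were under the lower quartile of the PGC-1a1 arrays with either treatment, and all 3 other probe sets of Sema3e were lower with TNF.

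In PGC-1a4 cells TNF minus PBS was called in 70.2% of genes, 37.4% higher and 32.8% lower. Against PGC-1a4 cells, 3068 responses differed (19.8%), 1112 above (7.18%) and 1956 below (12.6%), although cyclic loess gave 1734 and 1602. Furthest above were Upp2 (4.26), Pck1 (3.57), Cpn2 (2.73), Psg28 (2.68), Plin5 (2.63), Kynu (2.55), Kifc3 (2.54), Eogt (2.46), Gata3 (2.44) and Fabp3 (2.35). Furthest below were Sema3e (-3.64), Tead2 (-2.64), Tcim (-2.33), Ces1d (-2.26), Trib2 (-2.25), Krt20 (-2.24), Nexmif (-2.24), Cxcl10 (-2.23), Cd44 (-2.11) and Nts (-2.10). In PGC-1a4 cells Upp2 and Gata3 were under the lower quartile with either treatment, Pck1 with TNF and Ces1d with PBS, and in PGC-1a1 cells so were Tcim with TNF and Ces1d with PBS. Cxcl10 rose by 5.44 in PGC-1a4 cells against 3.21 in PGC-1a1 cells, from lower PBS levels, as the plot of levels by array shows. Complex I and mitochondrial ribosomal responses were above PGC-1a4 in 15 of 33 and 14 of 62 members and below in 0 and 1. For NRF2 targets and immediate early genes they were below in 13 of 18 and 12 of 26 and above in 0 of either list. These list counts rest on the deposited values alone and were not made in the other scalings. When only the 7745 genes above the median level were tested, 1112 responses were above PGC-1a4 and 1949 below.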

How the data were processed

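Total RNA of 18 samples was labelled with biotin and read on Affymetrix Mouse 430 2.0 arrays. The deposited values are log2 probe set levels, made by the authors with RMA in affy, as named in the submitters' processing notes (the version of either was not given in those notes). How the arrays were grouped in that step is not given either. An incomplete last row was left out, which left 33245 probe sets, and the table is held here only in part. Of these, 25951 name 1 gene, 686 several and 6608 none, by GEO's platform annotation, with symbols updated through RefSeq (GRCm38.p6, 25803 matched). The brightest probe set over all arrays stood for each of 15491 genes, with no filter on low values. Predicted genes and pseudogenes were counted and not named.

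Groups came from the labels. Differences were tested on the deposited log2 values with limma 3.58.1 (R 4.3.3; lmFit and eBayes, 1 mean per group, all 18 arrays), two-sided, with Benjamini-Hochberg adjustment over all genes and a threshold of 0.05. The same fit tested the TNF response in PGC-1a1 minus that in vector or PGC-1a4 cells. The fit was also run on simulated arrays in which few genes changed and no array set was shifted. These data differ in both respects, so that run does not bear on the calls made here. Precision is limited by having 3 arrays per group, and the median standard error of a difference was 0.12. "Under the lower quartile" means a group mean under the lowest lower quartile of that group's arrays.

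Genes were named by rule: Ppargc1a and Tnf, the 15 highest and 15 lowest called differences with arrays that do not overlap, members of 40 gene lists with at least the 4 smallest p of each, and the 10 highest and lowest differences between responses. The 1042 list entries gave 815 measured ones. The comparison, its genes and the lists were chosen with earlier results of these data known, so lists are described by counts and medians with no set test. Promoters came from RefSeq, and motifs were searched on both strands. Alternatives were 3 scalings, other moderation, array weights, a replicate block, a level filter, the mean of probe sets, a minimum fold of 1.5, a threshold of 0.01, the compared arrays alone, and each array left out.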

Additional observations from a re-analysis of the deposited data

Results flagged for a closer look

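The values here are log2 differences between TNF responses, PGC-1a1 minus vector. They are given for genes named above whose difference was called by limma (adjusted p under 0.05) and was at least 2-fold, which held for 70 genes. The difference itself was tested, as an interaction in the fit over all 18 arrays.

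In energy and lipid metabolism the PGC-1a1 response was above the vector response in Pck1 (3.18), G6pc (3.35), Plin5 (3.12), Slc25a20 (1.84), Acadvl (1.42), Cpt1a (1.16), Fabp3 (1.81), Cox7a1 (1.54), Thrsp (1.73), Glyctk (3.52) and Upp2 (4.30). Among enzymes of amino acid and NAD metabolism it was above in Kynu (3.57), Qprt (2.88), Aspa (3.04) and Nags (1.55). Among regulators it was above in Hnf4a (2.57), Ppara (1.29), Esrra (1.24), Sirt3 (1.95), Nr1i2 (1.90) and Gata3 (1.61), and among drug metabolism genes in Fmo5 (1.68), Gstt1 (1.22), Sult1b1 (1.36), Sult1e1 (1.16) and Tpmt (1.62). Plasma protein genes in this group were Apcs (1.04), Cpn2 (2.85), Crp (1.15) and Hp (1.19). Genes of inflammation and cell death were Ccl2 (1.47), Ccl9 (1.23), Ccl20 (1.30), Cxcl1 (1.21), Nfkbid (2.23), Tnfaip3 (1.02), Bik (2.53) and Casp6 (1.61). The remaining ones were Eogt (1.01), Gca (1.62), Kcnk1 (1.85), Kifc3 (2.14) and Mkln1os (2.71).

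The PGC-1a1 response was below the vector response in the stress genes Hspa1b (-3.70), Hsph1 (-1.45), Pdia4 (-1.64) and Nqo1 (-1.17) and in the early genes Maff (-1.09), Klf4 (-1.37) and Fosl1 (-1.59). It was also below in the metabolic genes Pdk4 (-1.67), Slc2a1 (-1.35) and Ces1d (-1.15). Genes of matrix, adhesion and other cell types in this group were Mmp13 (-1.33), Ccn2 (-1.11), Cd44 (-1.69), Lyve1 (-1.68), Sox9 (-1.62) and Krt20 (-2.73). The remaining ones were Cited2 (-1.24), Dppa3 (-2.70), Lce1f (-2.44), Lrp8 (-2.29), Nexmif (-2.10), Nts (-2.26), Sema3e (-2.47), Sox11 (-2.40), Speer4a (-3.08), Tafa2 (-2.51) and Tead2 (-1.56). In vector cells Pck1 and Upp2 were under the lower quartile of the arrays with either treatment, and Cox7a1, Fabp3, Gca, Gata3, Ces1d, Mmp13, Speer4a and Tafa2 with PBS.

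Probe sets that name no single gene were not used in the comparisons, and 4065 of 7294 were called between TNF and PBS in PGC-1a1 cells.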

How the results depend on the processing

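Of 10782 genes called between TNF and PBS in PGC-1a1 cells, 3701 were called with a minimum fold of 1.5, and 6371 were called when testing was limited to genes above the median level, a setting that tests fewer genes. The count was 10012 to 10427 without 1 of the 6 arrays compared, and up to 10885 without 1 of the other arrays of the fit. The other settings gave 9197 to 11254. Centring each array turned an even split into 66.7% higher calls. The 3943 differences from the vector response became 497 with the minimum fold and 2544 at an adjusted p of 0.01, and were 3373 to 3826 without 1 of the 12 arrays compared (up to 3989 without a PGC-1a4 array). The 3068 differences from the PGC-1a4 response became 275 and 1789, and were 2517 to 2818 without 1 of the 12 arrays compared (up to 3196 without a vector array). Of the gene list members, each counted once, 614 were called, 576 to 640 in the other settings and 577 to 603 without 1 of the 6 arrays compared. Over all genes 69.6% were called. The 815 measured list entries count a gene again in each list that holds it, so they are not the base of the 614. No share is read from that count.

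Averaging all probe sets of a gene turned the TNF difference of Actb to 0.54, Bad to 0.15, Eogt to -0.12, Glyctk to -0.35, H2-D1 to 0.18, Lrp8 to -0.27, Map3k7 to 0.10, Nfkbia to 0.72, Sema3e to -0.58 and Tpmt to -0.02. It turned the Nfkbia difference from the vector response to 0.16. Quantile normalization turned Atp5k to -0.05 and Kifc3 to -0.08, cyclic loess turned Atp5k to -0.22 and Sdhd to -0.08, and centring gave Tnfrsf1a 0.22. The cause was not tested. Without 1 array of those compared, 7 of 247 named genes lost the TNF call, 3 gained it and 0 changed sign, and 19 of 142 lost the call of the difference from vector.

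Same-numbered PBS and TNF arrays deviated together with correlations of 0.0934, -0.0021 and 0.1313, so the numbers were not taken to pair the arrays. With the replicate number as a block, 10760 genes were called, and 3935 and 2992 differences from the vector and PGC-1a4 responses. Signal over background limits differences that start or end under the lower quartile.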
